A study of Caenorhabditis elegans with 8 samples.

Results

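Embryos of the nematode Caenorhabditis elegans were set against young adults on 6 of the 8 arrays of a study of nucleotide excision repair in aging animals. The 3 embryo arrays were those whose titles name a preparation with bleach and NaOH, the 3 young adult arrays were those titled as such, and no measured value entered the choice. All RNA came from strain JK1107, which carries the temperature sensitive allele glp-1(q224), so both groups shared that mutation. Each Affymetrix C. elegans GeneChip array measured the RNA of 1 pool of whole animals. Embryos were taken at various stages from adults raised at 15 °C, and the labels give 5000 eggs per pool. Young adults were hatched at 20 °C from eggs of parents kept at 15 °C, raised at 25 °C and harvested 24 h after the L4 stage, which is day 1 of adulthood, with 3000 to 5000 animals per pool. At 25 °C this allele leaves adults without a proliferating germ line. The young adults therefore stood for a nearly germ line free soma, while the embryos came from fertile mothers. By the labels, stage and rearing temperature could not be told apart. The text of the study gives other pool sizes, and a table legend in it names 25 °C for embryos as well as adults. Its methods, however, describe adults as obtained by moving mixed-stage embryos to 25 °C. The 15 °C of the embryos' parents is given by the labels alone. In bulk samples of this kind, fewer cells of a type and less RNA per cell could not be told apart either. The labels do not say that the pools came from separate cultures, so p-values measure the spread between these pools only, and precision is limited by the number of arrays. The remaining 2 arrays, of aging adults at day 6, entered the statistical fit but are not described.

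A C. elegans embryo runs its first divisions on RNA and protein supplied by the mother, and its own genome then takes over as cells divide, acquire fates and build tissues inside the eggshell. In the later stages the epidermis secretes the first cuticle, muscles begin to contract and neurons extend axons. A young adult no longer divides its somatic cells. Its large intestine digests bacteria, stores fat, fights microbes and makes yolk protein, and its epidermis maintains the collagen cuticle of the adult.

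Values are normalized intensities, that is, deposited intensities divided by 1 factor per array. The factor was the median of the probe sets that were above the array noise on all arrays of the study. A common floor of 57.2 was set at the noise of the noisiest array, so values under it were not distinguished from background. A gene was called bright where all 6 arrays lay above the floor, which held for 4361 of 17118 genes. A further 1868 genes were above the floor on all 3 embryo arrays and on no young adult array, and 1247 were above it on all 3 young adult arrays and on no embryo array. The other genes were above the floor on some arrays of a group (2501) or on no array (7141). Above the floor were 7437 to 7693 genes on an embryo array and 6731 to 6881 genes on a young adult array. Scaled noise was 17.1 to 17.7 in embryos and 41.0 to 57.2 in young adults. The floor was the same for both groups, so it lay nearer to the noise of the young adult arrays. The part of this difference in the counts of genes at the floor was not tested.

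Profiles were closely alike among the embryo pools and less alike among the young adult pools. Rank correlations (Spearman) taken over probe sets, which do not count as replicates of each other, were 0.972 to 0.976 within embryos, 0.917 to 0.939 within young adults and 0.610 to 0.649 between the groups. The median coefficient of variation of a bright gene was 9.88% in embryos and 23.4% in young adults. The 100 most intense genes held 11.8% to 12.8% of all intensity in embryos and 19.5% to 22.2% in young adults.

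The gene that the strain carries in mutated form, glp-1, encodes a Notch receptor that keeps germ line stem cells dividing and patterns the early embryo. It had 313, 400.2 and 306 in embryos, against 43.4, 66.5 and 18.2 in young adults, and a single young adult array was above the floor. Log2 fold changes are always given as embryos minus young adults. With the young adult arrays under the floor raised to it, that of glp-1 was at least 2.49 (adjusted p = 1.08e-06). Of 24 oocyte and germ line markers, 22 to 23 were above the floor on an embryo array and 2 to 3 on a young adult array, with summed levels of 8729.9 to 9494 in embryos and 670.3 to 889 in young adults. None of 35 sperm markers was above the floor in embryos, against 10 to 13 in young adults, where the summed level was 2249.9 to 2389.7 and that of embryos was 264 to 302. Of 11 adult intestine markers, 2 to 3 were above the floor in embryos and all 11 in young adults. Of 4 adult cuticle markers, none was above the floor in embryos and 2 were in young adults, where the collagen col-19 held most of the summed level. It was below the floor on every embryo array and had 10013, 7902 and 4328 in young adults. Of 9 early embryo markers, 5 to 7 were above the floor on an embryo array and 1 to 3 on a young adult array. The marker sets thus separated the groups by their labels, and the young adult pools held some sperm transcripts and few of the germ line.

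The 8785 genes tested, above the floor on at least 3 of the 6 arrays, include the 1868 and 1247 genes at the floor in 1 group. Those passed the filter through the group where they were high and had to differ, so the counts over all genes tested are a description. With limma and Benjamini-Hochberg adjustment at 0.05, 7234 genes were called (82.3%), of which 4115 were higher in embryos (46.8%) and 3119 were lower (35.5%). Among bright genes, for which both groups gave a measured level, 3140 were called (72%), 1510 as higher (34.6%) and 1630 as lower (37.4%). The median log2 fold change of bright genes was -0.035 and their quartiles were -1.25 and 0.92. A change of at least 4-fold was seen in 273 higher and 585 lower genes, and one of at least 16-fold in 9 higher and 110 lower genes, among genes called. Without rescaling the balance of the tails turned, with 1250 bright genes higher and 235 lower by at least 4-fold, called or not.

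These directions depended on how the arrays were scaled. The median deposited intensity over all probe sets was 56.2 to 64.2 on an embryo array and 19.1 to 21.9 on a young adult array. The set of bright genes is formed anew at each scaling. Without rescaling, 2825 of 4971 bright genes were higher and 1003 lower. After division by the median of all probe sets, as in the methods of the study, 1103 of 4276 were higher and 1796 lower. Of the 3140 bright genes called, 2494 kept the sign of their change under all scalings tried, 1491 of them higher and 1003 lower. Turns of a sign or of a balance are stated with the values of many genes and lists below, but not of all.

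**Figure D1:**
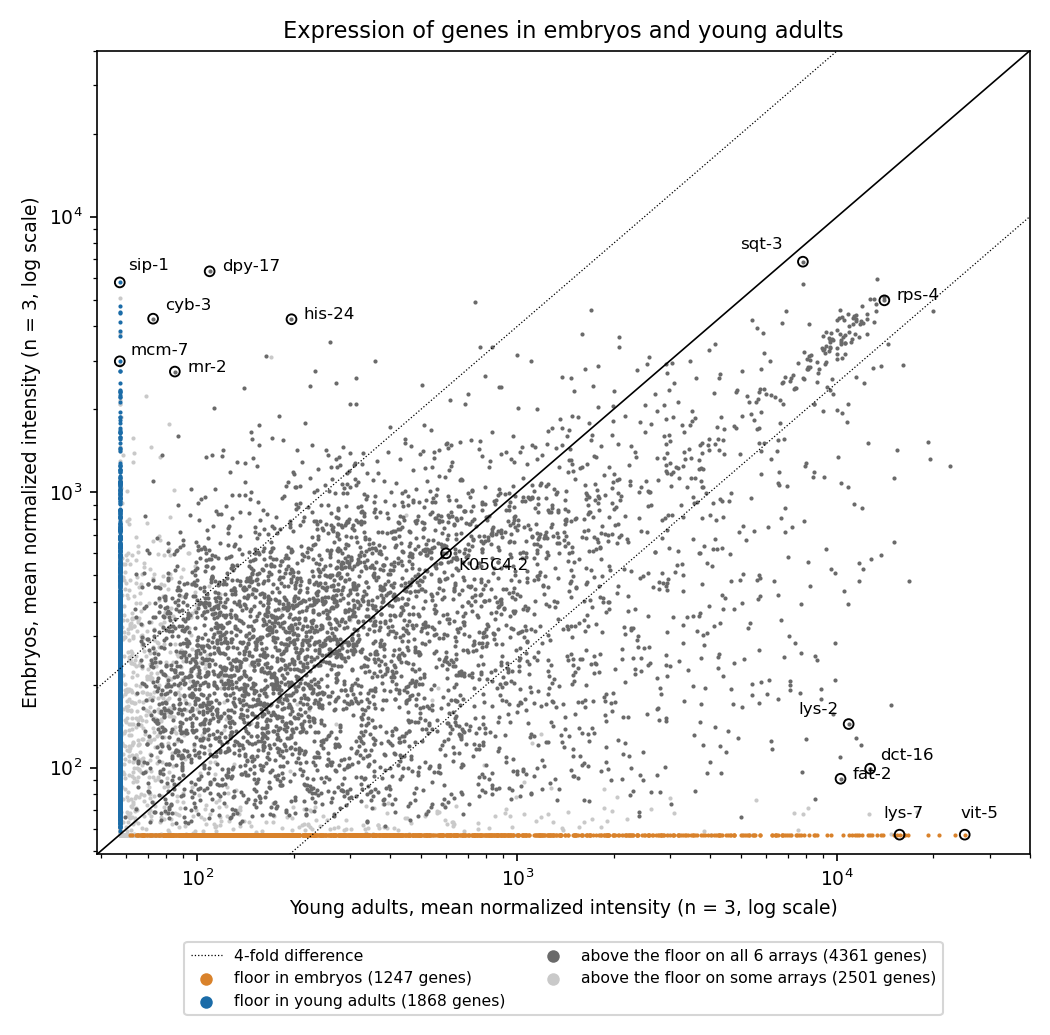
Mean normalized intensity of each gene tested in young adults (horizontal, n = 3 arrays) and in embryos (vertical, n = 3 arrays), on log axes, with values under the floor of 57.2 drawn at it. Dotted lines mark 4-fold differences of the means, and at this scaling 585 bright genes were called lower by at least 4-fold and 273 higher.

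Among bright genes, those that rose most in embryos encoded a cuticle collagen, cell cycle proteins and a linker histone. The cuticle collagen gene dpy-17 had 6771, 5927 and 6299 in embryos, against 103, 62 and 163 in young adults. That is 6332 ± 423 in embryos and 109 ± 50.8 in young adults (SD, n = 3 each), or 62.5-fold (log2 5.97 ± 0.32, SE, adjusted p = 7.16e-07). The groups lay far apart, and young adult replicate 2 was only just above the floor. Cyclin B3, which drives nuclear divisions and is encoded by cyb-3, had 4497, 4196 and 4095 in embryos and 62, 70.2 and 85.9 in young adults (log2 fold change 5.89 ± 0.17, SE, adjusted p = 6.35e-08). The small subunit of ribonucleotide reductase, which makes the deoxynucleotides used in DNA synthesis, is encoded by rnr-2. It had 2757, 2727 and 2736 in embryos, against 92.4, 68.5 and 94.0 in young adults, and its change of 32.6-fold was the third largest (log2 5.03 ± 0.17, SE, adjusted p = 1.17e-07). For both genes the embryo arrays lay close together, and the groups did not overlap, which the choice of genes required.

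The histone H1 gene his-24, whose protein binds the linker DNA between nucleosomes, had 4596, 4308 and 3825 in embryos and 113, 183 and 294 in young adults (log2 fold change 4.53 ± 0.32, SE). Of the next genes, cut-2 encodes a cuticlin of the cuticle and noah-1 a zona pellucida protein of the extracellular matrix over the embryonic epidermis. The cuticlin gene had 2704, 2368 and 4316 in embryos, against 242, 136 and 112 in young adults. The matrix gene noah-1 had 2509, 2343 and 2298 in embryos, against 201, 59.9 and 159 in young adults, a change of 19.1-fold. Embryo replicate 3 was the highest for the cuticlin and not for noah-1. The zinc finger factor hbl-1, which times early larval development, had 2088, 1846 and 2134 in embryos and 139.9, 122 and 75.7 in young adults, 18.5-fold. Ribosomal RNA processing followed with snu-13 and fib-1, which encode core proteins of the small nucleolar particles that guide methylation of ribosomal RNA. The level of fib-1, or fibrillarin, was 2591, 3086 and 2568 in embryos, against 161, 136 and 405 in young adults (log2 fold change 3.73 ± 0.40, SE, adjusted p = 3.67e-05). The level of snu-13 was 3498 ± 591 in embryos and 259 ± 155 in young adults (SD, n = 3 each), 14.9-fold. Young adult replicate 3 was the highest for both, yet lay far below every embryo array.

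Among the 15 largest decreases of bright genes were a pair of fatty acid desaturases, a lipid binding protein, a lysozyme and a C-type lectin, beside genes to which no role is given here. The lowest ratio was that of dct-16, with 88.6, 99.6 and 109 in embryos, against 14888, 11012 and 12136 in young adults, 127-fold (log2 fold change -6.99 ± 0.16, SE, adjusted p = 1.94e-08). At the scaling used this exceeded the largest increase in size, but the order turned without rescaling (dct-16 -5.77, dpy-17 7.18) and under quantile normalization (-6.27 and 6.55). The fatty acid desaturases fat-2 and fat-6, which act at the delta-12 and delta-9 positions of the acyl chain, were among the 5 largest decreases. The level of fat-2 was 69.2, 65.3 and 139 in embryos and 10480.0, 9885 and 10367 in young adults (log2 fold change -6.90 ± 0.27, SE, adjusted p = 2e-07). That of fat-6 was 84.1, 85.0 and 159 in embryos, against 8807, 11552 and 10234 in young adults, 97.1-fold. In both genes embryo replicate 3 was the highest of the embryo arrays, and the groups did not come near each other.

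The acid phosphatase gene acp-6 had 159, 193 and 152 in embryos, against 16932, 12071 and 15079 in young adults, 86.9-fold. The lipid binding protein gene lbp-2 had 102, 76.1 and 111 in embryos and 7387, 6250.0 and 9733 in young adults, 80.6-fold. The lysozyme lys-2, an enzyme that cuts bacterial cell walls, had 137, 134 and 162 in embryos, against 11245, 8236 and 13102 in young adults (log2 fold change -6.22 ± 0.24, SE, adjusted p = 1.81e-07). The infection response gene irg-4 and the C-type lectin clec-1, a member of a family of sugar binding proteins, belonged to the same extreme. The level of irg-4 was 60.4, 70.3 and 100.3 in embryos and 6577, 6044 and 12863 in young adults, so its young adult arrays differed by more than their embryo counterparts. The level of clec-1 was 157 ± 41.5 in embryos and 9729 ± 1026 in young adults (SD, n = 3 each), 63.2-fold.

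**Figure D2:**
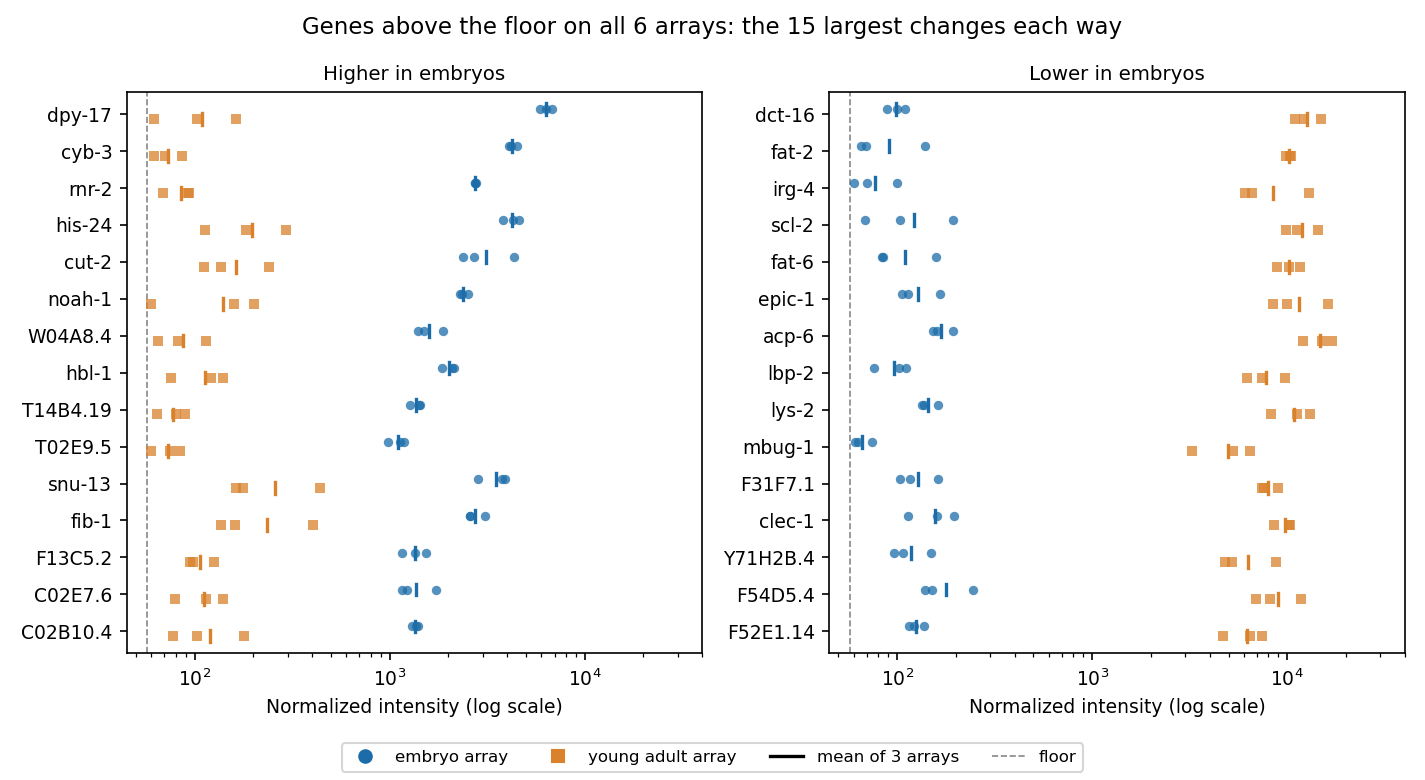
Normalized intensity on a log axis on each embryo array and each young adult array for the 15 bright genes with the largest increases and the 15 with the largest decreases in embryos. Only genes whose groups did not overlap and whose sign held under every scaling were taken. At the scaling shown the decreases reach 127-fold and the increases 62.5-fold, an order that turns without rescaling and under quantile normalization.

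Some bright genes were level between the groups. K05C4.2 had 630.1, 576 and 594 in embryos and 635, 604 and 557 in young adults, a log2 fold change of 0.00 with a 95% interval of -0.34 to 0.35. C27B7.2 averaged 128 in embryos and 127 in young adults, and C27C12.4 averaged 175 in embryos and 180.0 in young adults. Of the 1221 bright genes not called, 891 had a 95% interval within 2-fold of no change. Without rescaling K05C4.2, C27B7.2 and C27C12.4 had log2 fold changes of 1.22, 1.23 and 1.18, and were called as higher. None of the 3 was called after division by the median of all probe sets. Of the other steady genes chosen by the same rule, Y48E1C.2, F25H2.7 and srh-217 were then called as lower. W09D10.5 and H25P19.1 were not called at that scaling. Under quantile normalization K05C4.2 was not called, while C27B7.2 and C27C12.4 were called as lower. The brightest gene of the embryos was sqt-3, a cuticle collagen chosen here after its values were seen. It had 6871, 6049.8 and 7669 in embryos, against 9129.6, 7844 and 6467 in young adults, and the groups overlapped (log2 fold change -0.18, adjusted p = 0.309).

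Genes at the floor in young adults and above it on all embryo arrays give only a lower bound of the change, taken against the floor. The small heat shock protein gene sip-1 had 6272, 5405 and 5639 in embryos and was below the floor on all young adult arrays, at least 101-fold higher. The cuticle collagen dpy-14 followed with 5004, 4341 and 4843 in embryos (at least 82.6-fold), and caveolin, a protein of membrane invaginations encoded by cav-1, with 4643, 4413 and 4493 (at least 79.0-fold). Each was close to background in young adults, between -27 and 9.4. The linker histones hil-7 and hil-2 averaged 4155 and 3677 in embryos, at least 72.6-fold and 63.7-fold higher. The helicase subunit mcm-7, part of the ring that unwinds DNA at replication forks, had 3062, 3170.5 and 2724 in embryos, at least 52.1-fold higher. The cuticlin cut-3 had 1853, 1978 and 3219.7 in embryos, at least 39.8-fold higher. As with cut-2, embryo replicate 3 was the highest. The remaining 5 of the 12 brightest genes of this kind were the C-type lectin clec-266, the transthyretin-like ttr-50, the Skp1-related skr-8, and T09B4.5 and C01G6.3, at least 43.7-fold to 78.0-fold higher.

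In the other direction the brightest genes were those of yolk protein. Vitellogenins are made by the adult intestine and carried to the oocytes. The gene vit-5 was below the floor in embryos and had 27976, 24285 and 22883 in young adults, at least 437-fold lower in embryos. The gene vit-4 had 27096, 22661 and 20124 in young adults, against values below the floor in embryos, at least 404-fold lower. All 5 vitellogenin genes measured by probe sets of their own (vit-1, vit-2, vit-4, vit-5 and vit-6) were of this kind, and the lowest, vit-1, averaged 13 in embryos and 10425 ± 5494 in young adults (SD, n = 3). Several vitellogenin genes are near-identical copies, so the split of the signal among them is uncertain. The lysozymes lys-7 and ilys-5 were at least 272-fold and 262-fold lower in embryos, and lys-7 had 13954, 18685 and 14366 in young adults. The collagens col-122, col-181, col-140, col-106 and col-184 also belonged to the 12 brightest, at least 237-fold to 334-fold lower in embryos, with dod-23 at least 282-fold lower. Collagen genes are alike in sequence, and probe sets of 1 may take up RNA of another.

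**Figure D3:**
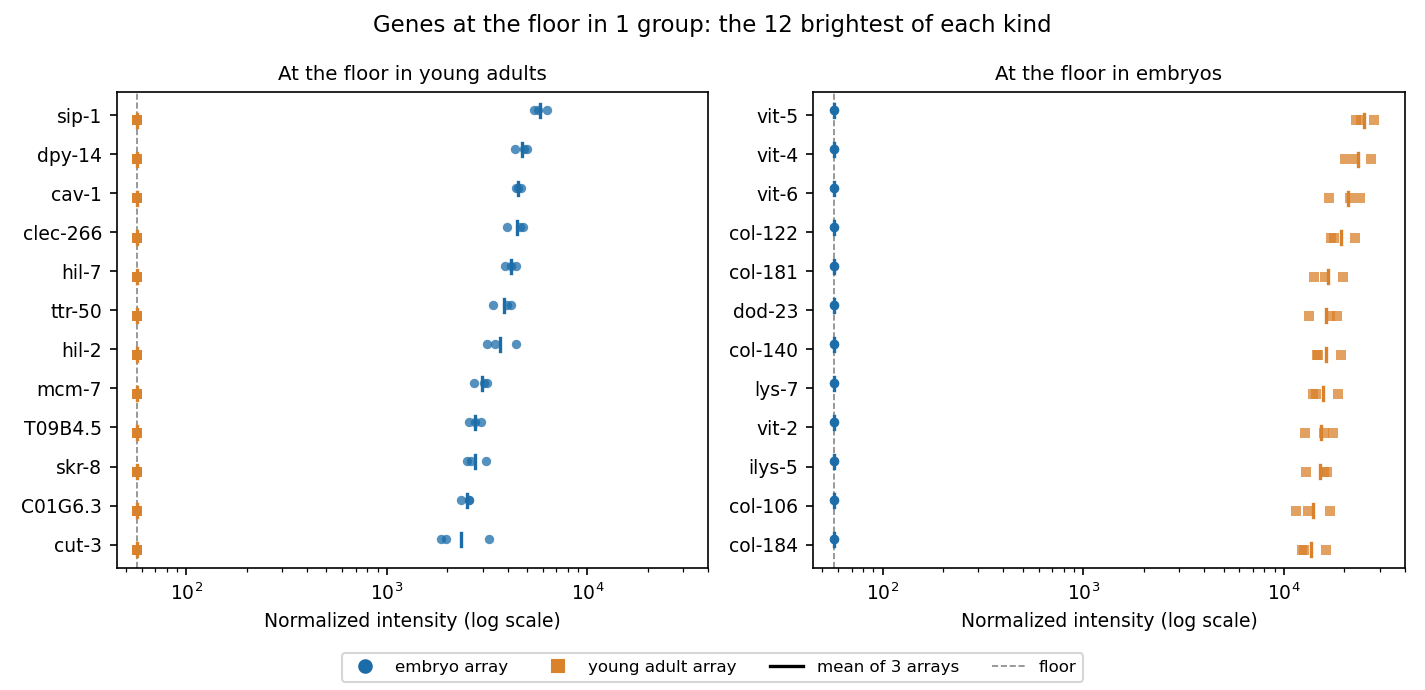
Normalized intensity on a log axis on each array for the 12 brightest genes that were below the floor on every young adult array and the 12 brightest that were below it on every embryo array, with the floor of 57.2 as a line and lower values drawn at it. The bright side reaches 6272 in embryos (sip-1) and 27976 in young adults (vit-5).

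In the lists that follow, bright members come first, to be read against 34.6% higher and 37.4% lower among all bright genes. Counts of members at the floor in 1 group are a description, since such genes had to differ to be placed there. Members of a list that are not mentioned were above the floor on some arrays of a group or on none. Counts under another scaling cover all members tested. Most bright genes of cell division were higher in embryos. Of 42 DNA replication and G1/S genes on the array, 5 were bright and all 5 were higher (median log2 fold change 2.45), 29 were at the floor in young adults, none was at the floor in embryos, 6 were above it on some arrays and 2 on none. The licensing factor cdc-6, which loads the replicative helicase, had 391, 479 and 389 in embryos, against 114, 103 and 76.8 in young adults. The cell cycle inhibitor cki-1 averaged 726 in embryos and 107 in young adults (log2 fold change 2.87), although its product restrains the entry into S phase. Of 68 mitosis genes, 14 were bright, of which 12 were higher and 1 was lower (median 1.71), and 47 were at the floor in young adults. The survivin homologue bir-1, which acts at the chromosome and in cytokinesis, averaged 947 in embryos and 146 in young adults (2.75). The bright member lower in embryos was the myosin light chain mlc-4 (-0.70), and its sign turned without rescaling. The DNA repair genes outside nucleotide excision repair had 6 bright members, 5 of them higher (median 1.23), and 27 of 46 at the floor in young adults. The recombinase rad-51 had 423, 489.6 and 363 in embryos, against 84.9, 96.5 and 81.2 in young adults. Oocyte and germ line markers were higher in embryos over the same arrays, and their part in these counts was not tested.

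Genes of the nucleus and of RNA processing were higher in embryos in nearly all bright members. All 20 bright chromatin regulators were higher in embryos (median 1.84), with 13 of 44 at the floor in young adults. The histone binding protein lin-53 had 1220.5, 1530.0 and 1063 in embryos, against 131, 104 and 188 in young adults (log2 fold change 3.20 ± 0.27, SE, adjusted p = 9.34e-06). The nucleosome remodelling ATPase isw-1 had 740.2, 944 and 786 in embryos, against 111, 102 and 71.5 in young adults. Of 26 bright splicing genes, 25 were higher and none was lower (median 2.06), and 7 of 45 were at the floor in young adults. The Sm protein snr-1, a core piece of the spliceosomal particles, had 1703, 1674 and 1295 in embryos and 149, 94.8 and 201 in young adults (3.45 ± 0.28, SE, adjusted p = 6.81e-06). Of 18 bright genes of the nuclear pore, lamina and import, 17 were higher and 1 was lower (median 1.81), and 14 of 42 were at the floor in young adults. Emerin, an inner nuclear membrane protein encoded by emr-1, averaged 385 in embryos and 68.8 in young adults (2.49). The exception was ran-4 (-0.64), whose sign turned with the scaling.

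Histone genes were mixed. Of 21 bright members, 10 were higher and 4 lower (median 0.52), and none was at the floor in a single group. The replacement histone H3.3 gene his-72 had 3425, 3181 and 3495 in embryos, against 671, 768 and 1067 in young adults. A histone H4 gene, his-37, went the other way, with 994, 1036 and 850.1 in embryos and 2924, 3469 and 4269.6 in young adults (-1.88 ± 0.17, SE, adjusted p = 1.11e-05). Replication-dependent histones lie in near-identical copies and their messages lack poly(A) tails, so single members are uncertain.

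Of 27 maternal fate genes, 19 were at the floor in young adults and 2 were bright, 1 of which was called as higher. The zinc finger proteins pos-1 and mex-5, which set up the fates of the first cells, had 2267, 2495 and 2196 (pos-1, at least 40.5-fold) and 1118, 1370.2 and 1114 (mex-5, at least 20.9-fold) in embryos and were below the floor in young adults. The posterior homeodomain factor pal-1 had 525, 560.0 and 481 in embryos, against 92.9, 89.2 and 72.2 in young adults (2.63 ± 0.15, SE). Of 18 P granule genes, 9 were at the floor in young adults and 3 of 4 bright members were higher, among them the RNA helicase cgh-1 with 854 in embryos and 327 in young adults (1.40). Of 9 bright polarity genes, 8 were higher (median 1.06) and 4 of 18 on the array were at the floor in young adults. An example of the higher members was the cortical protein par-3 with 598 in embryos and 212 in young adults (1.51). The 14-3-3 protein par-5 was lower (-0.48), and its sign turned with the scaling. These genes are also expressed in oocytes, whose markers were higher in embryos. Some of those markers are themselves members of these lists, so the observations overlap. They are oma-1, oma-2, puf-5, gld-1 and daz-1 of the maternal fate genes and pgl-1, glh-1 and cgh-1 of the P granule genes. The part of maternal RNA was not tested.

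Genes of the eggshell and egg yolk uptake were divided. Of 25 members, 9 were at the floor in young adults, 2 at the floor in embryos, and of 6 bright ones 3 were higher and 1 lower. The chondroitin proteoglycan cpg-1 had 1828, 1596 and 1527 in embryos and was below the floor in young adults. By contrast perm-4 and perm-2, which belong to the eggshell layers and were singled out after their values were seen, were below the floor in embryos. The level of perm-4 was 10896, 10661 and 11895 in young adults (at least 195-fold lower in embryos), and that of perm-2 averaged 9294 in young adults (at least 162-fold lower in embryos). The endocytic factor rme-1, which recycles yolk receptors, averaged 680.4 in embryos and 1213 in young adults (-0.81), but 0.40 on the log2 scale without rescaling.

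Regulators of tissue identity leaned to embryos. Of 57 tissue specification genes, 26 were at the floor in young adults and none in embryos, and 11 were bright, 6 higher and 3 lower (median 0.99). The epidermal factor lin-26 had 769, 756 and 602 in embryos, against 229.8, 179 and 124 in young adults. The gut GATA factor elt-7 was lower in embryos, at 167, 175 and 135 against 291, 541 and 529 in young adults (-1.47 ± 0.28, SE, adjusted p = 0.00126), a difference that was not called without rescaling (-0.25). Of 89 homeobox genes, 29 were at the floor in young adults and 4 in embryos, and 8 of 11 bright ones were higher and none lower (median 1.55). The homeodomain factor ceh-32, which acts in head formation, had 532, 524 and 463 in embryos, against 67.6, 67.8 and 58.1 in young adults (2.97). Nuclear hormone receptors did not share this lean. Of 45 bright members 10 were higher and 17 lower, shares of the order of the background, and 47 tested members were higher and 25 lower without rescaling. There were 7 of 259 at the floor in young adults and 26 in embryos. The receptor nhr-105 averaged 173 in embryos and 784 in young adults (-2.13), and nhr-47 averaged 235 in embryos and 79.5 in young adults (1.58).

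Signalling and cell contact genes followed the same lean. Of 17 bright Wnt and Notch pathway genes, 13 were higher and 1 lower (median 1.85), and 12 of 46 were at the floor in young adults and 1 in embryos. The APC homologue apr-1 had 871, 1002 and 693 in embryos, against 136, 129 and 78.6 in young adults. The beta-catenin bar-1 was lower (-1.14), with a sign that turned with the scaling. Of 13 bright junction and attachment genes, 9 were higher and 1 lower (median 1.14), and 6 of 27 were at the floor in young adults. Alpha-catenin, encoded by hmp-1, averaged 679 in embryos and 108 in young adults (2.70), while mup-4, a protein that ties muscle to cuticle, had 294, 285 and 381 in embryos and 1502, 767 and 634 in young adults (-1.51, not called without rescaling). Of 25 bright axon guidance genes, 18 were higher and 1 lower (median 1.39), with 8 of 48 at the floor in young adults and 1 in embryos. Syndecan, encoded by sdn-1, had 1471, 1432 and 1375 in embryos, against 249.8, 244 and 264 in young adults, and the netrin receptors unc-5 and unc-40 had log2 fold changes of 2.39 and 2.08. Hedgehog-related and patched-related genes, many of them active in the molting epidermis, were split. Of 15 bright members 4 were higher and 5 lower (median -0.12), and 13 of 82 were at the floor in young adults and 4 in embryos. Yet grd-5 averaged 127 in embryos and 2069.6 in young adults (-4.06).

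Genes of cuticle and gut were lower in embryos. Of 35 bright collagens, 26 were lower and 6 higher (median -1.64), while 41 of 146 were at the floor in embryos and 6 in young adults. The collagen col-159 had 161, 202 and 262 in embryos, against 14711, 4109 and 10704 in young adults, with a wide spread in the adults. The collagen col-119 had 1221, 1107 and 1393 in embryos, against 26942, 21134 and 19663 in young adults (-4.18 ± 0.15, SE). The collagens dpy-17 and dpy-14, higher in embryos, and sqt-3, not called, stood outside this majority.

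All 14 bright members of the gut protease list were lower in embryos (median -3.50). Of its 46 members, 13 were at the floor in embryos and 1 in young adults. Among the 46 are the acid ceramidase genes asah-1 and asah-2. The cathepsin B relative cpr-6 had 573, 522 and 615 in embryos, against 14715, 12829 and 10857 in young adults (-4.48 ± 0.14, SE, adjusted p = 7.01e-08). The aspartyl protease asp-3 had 461, 475 and 1041 in embryos, against 14690.5, 16234 and 14360.0 in young adults. Of 11 bright C-type lectins 9 were lower and none higher (median -4.06), and of 12 bright lysozymes and antimicrobial proteins 10 were lower and none higher (median -3.22). At the floor in embryos were 36 of 220 lectins and 17 of 59 lysozymes, and at the floor in young adults 8 lectins and 2 lysozymes. The lectin clec-63 had 397, 417 and 614 in embryos, against 15178, 17786 and 17171 in young adults (-5.16). The lysozyme lys-1 had 436, 424 and 569.6 in embryos, against 13113, 9377 and 12706 in young adults. Of 42 bright detoxification genes 34 were lower and 3 higher (median -1.84), and 62 of 210 were at the floor in embryos and 8 in young adults. The short chain dehydrogenase dhs-3 averaged 81.4 in embryos and 2611 in young adults (-5.0), and the glutathione transferase gst-10 averaged 239 in embryos and 4763 in young adults (-4.32). Adult intestine markers summed to 1347 to 2448 in embryos and 112626 to 158853 in young adults. Much of that sum came from the 5 vitellogenins and from asp-1, which averaged 19234 in young adults. The markers asp-1, cpr-1 and lys-4 are also members of the protease and lysozyme lists, so the sum is not independent of these lists. The part of the amount of intestine was not tested.

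Transthyretin-like genes, secreted proteins of nematodes, were lower in 16 of 18 bright members with none higher (median -2.42), and 9 of 40 were at the floor in embryos and 1 in young adults. The level of ttr-51 was 270.1, 225 and 357 in embryos, against 8777, 8873 and 11935 in young adults. F-box and MATH genes, which are substrate adaptors of ubiquitin ligases, had 4 higher and 4 lower of 10 bright members, with 12 of 256 at the floor in young adults, 30 in embryos and 170 above the floor on no array. Over all members tested 16 were higher and 36 lower, but without rescaling 21 were higher and 21 lower. The gene fbxa-156 averaged 77.1 in embryos and 956 in young adults (-3.65).

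Energy metabolism was lower in embryos at the scaling used, to unequal degree. Of 21 bright glycolysis and sugar genes 19 were lower and none higher (median -2.27), a balance that held without rescaling, where 15 tested members were lower and 2 higher. Pyruvate kinase, the last enzyme of glycolysis, is encoded by pyk-2 and had 107, 119.8 and 147 in embryos, against 1611, 1514 and 1014 in young adults (-3.45 ± 0.24, SE, adjusted p = 2.57e-06). Phosphoglycerate kinase, encoded by pgk-1, averaged 623 in embryos and 4223 in young adults (-2.72). Of 54 bright lipid genes 38 were lower and 5 higher (median -1.51), against 39 lower and 23 higher tested members without rescaling, and 16 of 97 were at the floor in embryos and 3 in young adults. The desaturase fat-3 averaged 255 in embryos and 8496 in young adults (-5.02). Of 25 bright TCA cycle genes 19 were lower and 1 higher (median -1.23), but 5 tested members were lower and 7 higher without rescaling. The mitochondrial malate dehydrogenase mdh-2 had 413, 449 and 501 in embryos, against 3730.2, 2285 and 1981 in young adults, whereas the succinyl-CoA ligase subunit sucg-1 had 442, 381 and 371 in embryos, against 146, 75.5 and 95.7 in young adults.

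Of 42 bright genes of the respiratory chain 36 were lower and 3 higher (median -1.42), but 9 of the tested members were lower and 8 higher without rescaling. Of 48 on the array, 1 was at the floor in young adults. A pair of related ATP synthase subunit b genes moved apart at every scaling. The gene asb-1 had 453, 496 and 410.4 in embryos, against 139, 59.6 and 116 in young adults (2.2 ± 0.30, SE, adjusted p = 0.000155). Its relative asb-2 had 599.9, 625 and 821 in embryos, against 2923, 3239 and 2312 in young adults (-2.05 ± 0.24, SE, adjusted p = 6.27e-05). Genes of the vacuolar proton pump were lower in 16 of 18 bright members with none higher (median -1.23), but without rescaling 2 tested members were lower and 4 higher. The last of the 19, vha-18, was at the floor in young adults. The intestinal subunit vha-6 averaged 239.9 in embryos and 2606 in young adults, and kept its sign (-3.46).

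For cytosolic ribosomal proteins the direction turned with the scaling. Of 75 bright cytosolic ribosomal proteins, 73 were lower and 1 higher (median -1.46). Under quantile normalization 34 were higher and 1 was lower, and 25 fell and 2 rose with no rescaling, so no direction is given for the family. The last of its 76 members was above the floor on no array. The gene rps-4 had 5122, 4639 and 5145 in embryos, against 15417, 13188 and 13531 in young adults, a log2 fold change of -1.50 at the scaling used and 0.23 under quantile normalization. A single member was higher in embryos at every scaling. That was rpl-11.1, with 819.9, 973 and 833 in embryos, against 266, 249.8 and 309 in young adults (1.67 ± 0.18, SE, adjusted p = 4.08e-05). Its paralogue rpl-11.2, named after its values were seen, had 2827, 2379 and 2599 in embryos, against 8531, 7227 and 7782 in young adults (-1.59), and turned under quantile normalization. Mitochondrial ribosomal proteins behaved differently, with 25 of 37 bright members higher and none lower (median 0.85), with 7 of 58 at the floor in young adults. The level of mrps-18C was 315 in embryos and 83.1 in young adults (1.94).

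Translation and protein turnover showed small shifts. Of 28 bright translation factors 15 were higher and 7 lower (median 0.55), and of 21 bright aminoacyl-tRNA synthetases 9 were higher and none lower (median 0.48). At the floor in young adults were 3 of 41 translation factors and 1 of 32 synthetases. All 7 lower translation factors turned with the scaling. The ribosome assembly factor eif-6 averaged 480.3 in embryos and 129 in young adults (2.05). Of 32 bright proteasome genes 8 were higher, 1 was lower and 23 were not called (median 0.23), while 32 were higher without rescaling and 4 were higher and 4 lower after division by the median of all probe sets. The base subunit rpn-1 had 1442, 1665 and 1366 in embryos, against 791, 628 and 371 in young adults (1.39). Of 35 bright chaperone genes 21 were higher and 6 lower (median 0.86), and 4 of 61 were at the floor in young adults. The small heat shock genes hsp-43 and hsp-25 were lower, hsp-25 with 678 in embryos and 4153 in young adults (-2.62), while the J protein dnj-11 averaged 490.0 in embryos and 81.0 in young adults (2.66).

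**Figure D4:**
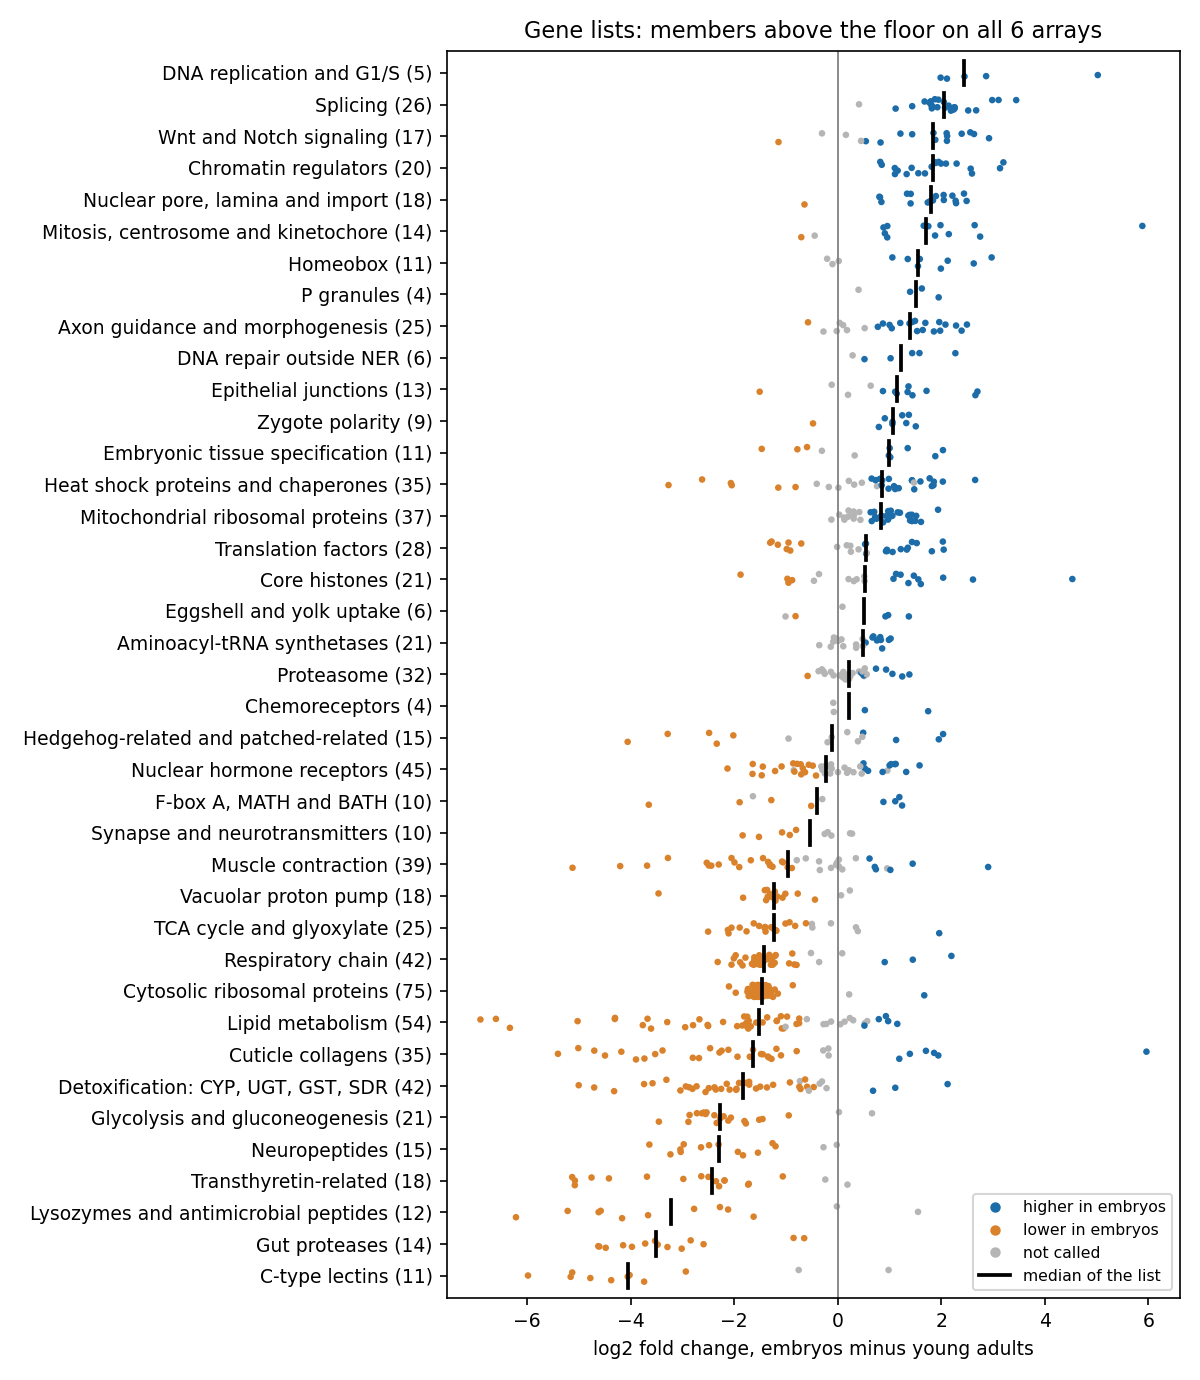
Log2 fold change, embryos minus young adults, of every bright member of the gene lists with at least 4 bright members, with points coloured by call and a bar at the list's median. Division, chromatin and splicing lists lie to the right of 0 (medians 1.71 to 2.45) and gut proteases and C-type lectins to the left (-3.50 and -4.06).

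Muscle genes contained both directions. Of 39 bright members 21 were lower and 6 higher (median -0.97), against 13 lower and 19 higher tested members without rescaling, and 1 of 47 was at the floor in young adults. Troponins, the calcium switch of the thin filament, went apart by gene. The troponin T gene tnt-2 had 173, 163 and 283 in embryos, against 9138, 7089 and 5204 in young adults (-5.12 ± 0.30, SE, adjusted p = 1.11e-06), and the troponin I gene unc-27 had 505, 431 and 638 in embryos, against 10383, 9117 and 9134 in young adults. The troponin I gene tni-1 was higher in embryos instead, with 1421, 1286 and 1732 against 367, 90.2 and 227 in young adults (2.91 ± 0.48, SE, adjusted p = 0.000551). Calsequestrin, the calcium store of muscle encoded by csq-1, averaged 302 in embryos and 3798 in young adults (-3.68). All of these kept their signs under every scaling.

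Neuropeptide genes were lower in embryos. Of 15 bright neuropeptide genes and peptide processing enzymes 13 were lower and none higher (median -2.30), and 42 of 112 were at the floor in embryos against 2 in young adults. The proprotein convertase egl-3, which cuts neuropeptide precursors, had 114, 105 and 197 in embryos, against 1589.5, 2299.8 and 1250.2 in young adults (-3.64). The carboxypeptidase egl-21, which trims the cut peptides, averaged 274 in embryos and 2588 in young adults (-3.23). Of 10 bright synapse genes 5 were lower and none higher (median -0.53), but 2 tested members were lower and 8 higher without rescaling. Of 43 synapse genes 2 were at the floor in young adults and 1 in embryos. Syntaxin, encoded by unc-64, had 179, 153 and 190.1 in embryos, against 467, 557 and 911 in young adults (-1.84, not called without rescaling). Synaptobrevin, encoded by snb-1, averaged 1062 in embryos and 2251 in young adults (-1.07), and its sign turned without rescaling (0.14). Of 1282 chemoreceptor genes 1250 were above the floor on no array, 1 was at the floor in young adults and 4 were at the floor in embryos. Another 4 were bright, of which 2 were higher, srr-4 by 1.75 on the log2 scale. Of the 11 members tested 3 were higher and 5 lower, but without rescaling 6 were higher and 4 lower.

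Of 75 sperm genes, 9 were at the floor in embryos, 56 were above the floor on no array and 2 were bright. The sperm-specific family members ssp-37 and ssp-10 were below the floor in embryos and averaged 517 and 534 in young adults, at least 8.99-fold and 8.98-fold lower in embryos. The bright member spe-39, which is also expressed in the soma, averaged 334 in embryos and 171 in young adults (0.96).

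The chromosomes differed in how their genes fell. The chromosome of each gene was taken from the RefSeq annotation of assembly WBcel235, which also gave gene symbols. At the floor in young adults and above it in embryos were 15.0% of the genes measured on chromosome I. The share was 9.87% on the X chromosome and 6.57% on chromosome V. The opposite kind, at the floor in embryos, made up 4.04% of genes on chromosome I, 9.92% on X and 8.40% on V. Over all genes measured, 1868 of 17118 were of the first kind and 1247 of the opposite kind. At the scaling used, 27.4% of bright genes on X were higher and 44.0% lower (median log2 fold change -0.36). On chromosome I 38% were higher and 30.4% lower (0.16), against 34.6% and 37.4% over all bright genes. Log2 fold changes of the genes tested in common shifted by a median of 1.22 without rescaling. The shift was -0.35 after division by the median of all probe sets, so the sign of either chromosome's median depends on the scaling. These shares are descriptions without a test, since genes of a chromosome include families that lie together.

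**Figure D5:**
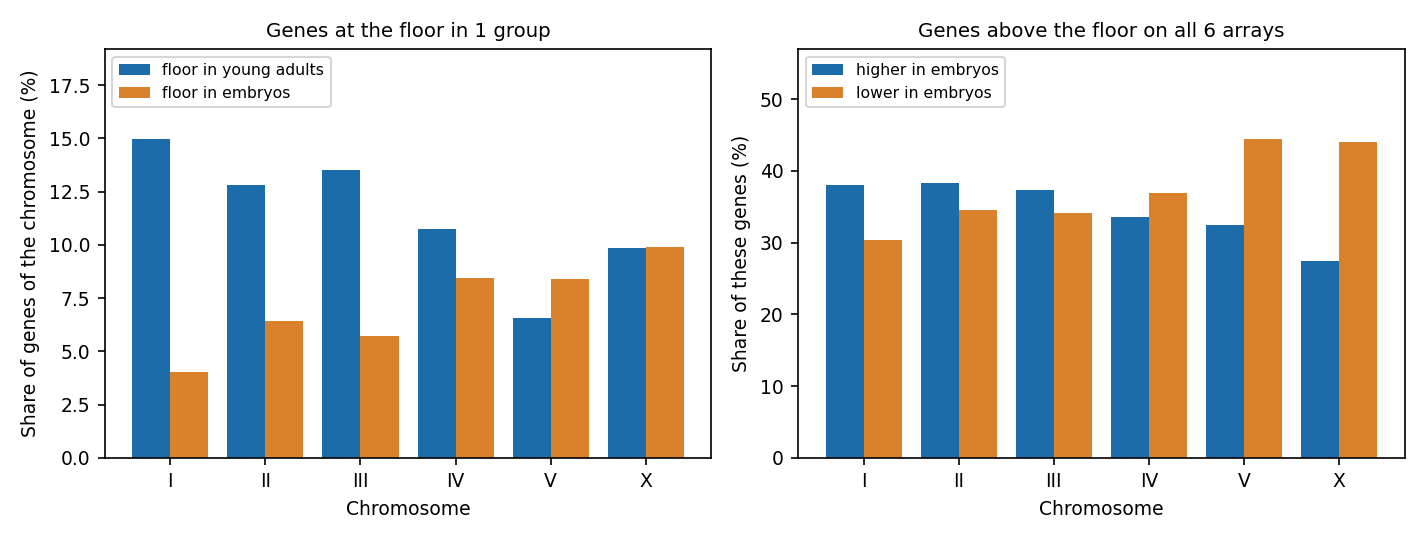
Left, percent of the genes measured on each chromosome that were above the floor in embryos and at it in young adults, beside the percent of the opposite kind. Right, percent of bright genes on each chromosome called higher or lower in embryos at the scaling used, with higher calls between 27.4% (X) and 38.3% (II).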

How the data were processed

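Per the labels and the methods, the authors hybridised RNA pools to Affymetrix arrays, used GCOS to read the scanned chips and Rosetta Resolver to store the data. The deposited values of 22548 probe sets are background-subtracted intensities on a linear scale. The accompanying Resolver table holds the authors' own scores of change and p-values and was not used. Probe sets were assigned to genes through the platform annotation, and gene symbols were taken from the RefSeq annotation where it held the gene. A gene's level was the median of the probe sets assigned to it alone (20766 probe sets, 17118 genes, 2981 of them with several). Probe sets of several genes (887) or of none (895) were set apart.

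The methods divide each array by its median. Here that median lay below the noise of the young adult arrays (28.7 to 35.0, the 95th percentile of the sizes of an array's negative values), so each array was divided instead by the median of the 7322 probe sets above noise on all 8 arrays. Values below the common floor of 57.2 were raised to it before log2 was taken. Genes above the floor on at least 3 of 6 arrays (8785) were tested with limma 3.58.1 in R 4.3.3, with all 8 arrays in 3 groups, a trended variance prior and Benjamini-Hochberg adjustment at 0.05, after a check on simulated data. Folds of genes were taken from mean log2 levels, so they can differ from the ratio of the averages given. "At least" folds of genes compare the geometric mean of the group above the floor with the floor. Those of probe sets of several genes or of none use the arithmetic mean.

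Other scalings, floors, noise levels, filters, probe set rules and arrays left out were tried. Replicate numbers were not used to pair the arrays in the main fit. Deviations of same-numbered arrays correlated at 0.10, -0.01 and 0.07, and those of differently numbered arrays at -0.096 to 0.015. With 3 arrays in a group these values cannot decide whether the arrays were paired. The groups, lists and rules were chosen with earlier results of these data known. Genes named were the 15 bright genes with the largest changes each way that did not overlap and kept their sign under every scaling. To these were added the 12 brightest at the floor in either group, 8 steady genes, the marker lists and glp-1. Up to 4 called members of each list were named too. Outside these rules were rps-4, the genes said to be chosen later and the exceptions given beside list counts.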

Additional observations from a re-analysis of the deposited data

Results flagged for a closer look

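Probe sets that the annotation assigns to several genes or to none entered no comparison above, yet some separated the groups. Of the 887 probe sets of several genes, 62 were above the floor on all 3 embryo arrays and on no young adult array, and 74 were above it on all 3 young adult arrays and on no embryo array. The highest of the 62 averaged 2742 in embryos, at least 48.0-fold above the floor, and the highest of the 74 averaged 24902 in young adults, at least 436-fold above it. Of the 895 probe sets without an assigned gene, 33 were of the embryo kind, up to 649.6 in embryos, and 24 of the young adult kind, up to 9497 in young adults.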

How the results depend on the processing

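Counts moved with the scaling and with the genes tested. The set of bright genes is formed anew at each setting, so its size changes too (4361 at the main setting, of which 1510 were higher). Without rescaling, 6486 genes were higher in embryos and 1923 lower, and 696 were at the floor in embryos. Of 4971 bright genes 2825 were then higher and 1003 lower, with a median log2 fold change of bright genes of 0.96. That median was -0.30 after division by the median of all probe sets and 0.084 under quantile normalization, where 2277 bright genes were higher. With the noise level at the 99th percentile 940 bright genes were higher. With no filter on dim genes and the floor of the methods (0.01) in place of 57.2, 4745 genes were lower. With only genes above the floor on all 8 arrays tested, 1406 were higher and 1602 lower. Without probe sets that may cross-hybridise, 2681 genes were higher, and of 2794 bright genes 918 were higher and 1050 lower. Requiring a 2-fold change left 986 of 4361 bright genes higher. The share of higher among called bright genes was 48.1%, against 38.1% after division by the median, 73.8% without rescaling and 52.3% under quantile normalization. The bright genes named for the largest changes were taken only where their sign held under every scaling. Agreement among named genes was thus partly fixed by their choice and does not measure robustness. Of all 3140 bright genes called, 2494 kept their sign under all scalings tried. Over 208 named genes with a called change, 4374 of the values recomputed kept both their direction and their side of the threshold. A further 63 fell short of the threshold. Another 5 turned, rme-1 (0.40), snb-1 (0.14) and ric-4 (0.29) without rescaling, and snb-1 (0.022) and vha-9 (0.025) under quantile normalization. Steady genes, the genes given as exceptions beside list counts, the genes chosen later and rps-4 are not among these. Some of them turned as well, as stated with their values. The cause was not tested.

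With each array left out in turn, 3894 to 4043 genes were higher and 2764 to 3284 lower, 1313 to 1675 bright genes were higher and 1482 to 1698 lower, and 1866 to 2011 genes were at the floor in young adults and 1242 to 1415 in embryos. The median of bright genes was -0.051 to 0.035, and its sign turned without young adult replicate 1 or 3. Among named genes cars-1, odr-8, fbxa-105, hsp-12.3, sru-22 and rpn-2 lost the call with an array left out. With the replicate number as a replicate block, 3983 genes were higher and 3095 lower, with 1441 higher and 1587 lower among bright genes, and 6980 of its 7078 calls were shared. Noise on the young adult arrays limits what can be measured below the floor.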

Other observations

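The 3 embryo arrays differed among themselves by gene list. On the log2 scale, embryo replicate 3 stood at a median of -0.09 against the mean of the other 2 embryo arrays over the 7156 genes above the floor on all 3. DNA replication genes were lower in it, at -0.28, and it was the lowest array for 36 of 40. Mitosis genes stood at -0.26 (lowest for 56 of 67) and splicing genes at -0.26 (lowest for 38 of 44). Gut proteases stood at 0.71 but were mixed (highest for 9 of 15 and lowest for 6). Hedgehog-related and patched-related genes stood at 0.57 (highest for 27 of 33), collagens at 0.54 (highest for 37 of 45) and muscle genes at 0.44 (highest for 36 of 42). These are descriptions of 1 array without a test, and the reason was not tested. Without this array 6866 genes were called, of which 6747 were shared with the full set and had the same sign.

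Genes without a symbol of their own made up 27% of bright genes, 34.9% of genes at the floor in young adults, 41.9% of genes at the floor in embryos and 47.0% of genes above the floor on no array. A pair of genes that fell outside the groups above were among the most intense of all. Both were chosen after their values were seen. The fatty acid and retinol binding protein gene far-2 had 63.8, 46.1 and 97.8 in embryos, against 19495, 17360.0 and 16372 in young adults (a log2 fold change of -7.96 with the embryo array under the floor raised to it, adjusted p = 3.35e-08). The gene F41F3.3 had 4944, 4211 and 5996 in embryos, against 164, -14.1 and 13.4 in young adults, where 1 array alone was above the floor (log2 fold change at least 5.94 with the others raised to it, adjusted p = 2.25e-06). The tyramine hydroxylase gene tbh-1, which makes the transmitter octopamine and was also chosen after its values were seen, was below the floor in embryos and had 6482, 6194 and 6146 in young adults, at least 109.7-fold lower in embryos.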
